A study of Mus musculus with 4 samples.

Results

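Transcript levels were compared between the libraries labelled preleptotene spermatocytes (PlpSC) and leptotene/zygotene spermatocytes (L/ZSC) of the mouse. A gene was taken as a member when its FPKM (fragments scaled to transcript length and to mapped fragments) reached 5 in at least 1 of these libraries and its symbol did not mark a short RNA (Snord, Snora, Scarna, Mir, Rnu, Rn45s, Rn7 or Rmrp). This gave 10578 members, 43.3% of the 24426 genes listed. Both libraries came from male C57BL/6 mice of 17 days, with cells of 5 mice pooled, no genotype or treatment, and Sertoli cells reduced by adherence before the stages were parted on a STA-PUT gravity gradient. The libraries labelled spermatogonia (SG, 30 mice of 7 days) and pachytene spermatocytes (PaSC, the same 5 mice of 17 days) are given beside them for context. Each stage was 1 library, so no difference below has a replicate check, an error or a p-value.

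Preleptotene spermatocytes carry out the last S phase before meiosis under the retinoic acid target STRA8. In leptotene, SPO11 makes programmed double-strand breaks along chromosome axes built from SYCP3, HORMAD1 and meiotic cohesin. In zygotene, the recombinase DMC1 drives invasion of the homologue while SYCP1 begins to zip the axes together. Pachytene follows, with the sex chromosomes silenced in the sex body and a large programme for later sperm formation switched on under factors such as A-MYB (Mybl1) and TCFL5.

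The labels were checked against stage markers. Of 8 leptotene/zygotene markers, 7 were lower in the library labelled L/ZSC, with a median log2 difference of −2.25. The recombinase gene Dmc1 stood at 11.6 FPKM in SG, 98.4 in PlpSC, 3.54 in L/ZSC and 1.75 in PaSC. Sycp1, which encodes the transverse filament of the synaptonemal complex, stood at 70.3, 215, 45.5 and 36.5 FPKM in the same order. Prdm9, which sets the sites of breaks, was at 2.34, 15.3, 0.786 and 0.297 FPKM. All of these were highest in the library labelled PlpSC, and the exception was Spo11, at 49.4 FPKM in PlpSC and 77.4 in L/ZSC. Of 8 pachytene markers, 7 were higher in labelled L/ZSC, with a median of 2.92. The preleptotene markers Stra8 and Kit were lower, from 47.1 to 5.88 and from 19.0 to 2.43 FPKM, whereas Dmrtb1 was higher, from 38.1 to 356 FPKM. The markers therefore go against reading labelled L/ZSC as leptotene and zygotene cells set beside their precursors, and PlpSC and L/ZSC are used below as names of the libraries. Set beside lncRNA values that the study lists, the PlpSC column lay within 1% for 642 of 642 transcripts and the L/ZSC column for 4 of 741. The deposited L/ZSC values are thus mostly not those listed under that label. The library labelled SG also held pachytene transcripts at high levels (Ldhc at 3409 FPKM), so its label was in doubt too. Its lncRNA values were a constant multiple of those the study lists for PaSC (519 of 519 within 1% of the median ratio). Values given for SG below are therefore not read as levels in spermatogonia. The library labelled PaSC held spermatid transcripts at high levels (Prm1 at 2937 FPKM), so PaSC too is used as a library name.

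A difference is given as log2 of (L/ZSC + 0.5)/(PlpSC + 0.5) on FPKM as deposited, and a member is called higher or lower past a fold of 1.5, 0.58 on the log2 scale. Of the 10578 members, 3535 were higher in L/ZSC (33.4%), 4362 were lower (41.2%) and 2681 lay within 1.5-fold. These shares are the background for every count that follows. The median over all members was −0.20, and 5% of members lay below −2.91 and 5% above 3.41. More than 4-fold higher were 1486 members and more than 4-fold lower were 1550. Of the 1486, 925 had their highest value of the 4 libraries in PaSC and 549 in L/ZSC, while 1503 of the 1550 peaked in PlpSC. The filter itself shapes the tails: 7317 members reached 5 FPKM in both libraries, 2217 in PlpSC alone and 1044 in L/ZSC alone, and of the 3261 members of the last 2 kinds 101 lay within 1.5-fold. Counts and medians of lists whose members entered mostly through 1 library are therefore descriptions of what the filter admitted. The scaling of the libraries matters as well, because short RNA symbols held 74.6% of summed FPKM in PlpSC and 42.5% in L/ZSC. Scaling to equal sums over all rows raised the difference by a median of 1.15 over members, from 0.16 for members near 0 in PlpSC to 1.20, and turned the balance to 6182 higher and 1986 lower. Equal sums without the short RNA symbols and a median ratio shifted the scale by 0.02 and 0.08. The sums without these symbols still held 2 members annotated as RNase P RNA, together at 129425 FPKM in PlpSC and 22619 in L/ZSC. A shift without those members was not computed. In bulk RNA, fewer cells of a type and less RNA per cell cannot be told apart.

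**Figure D1:**
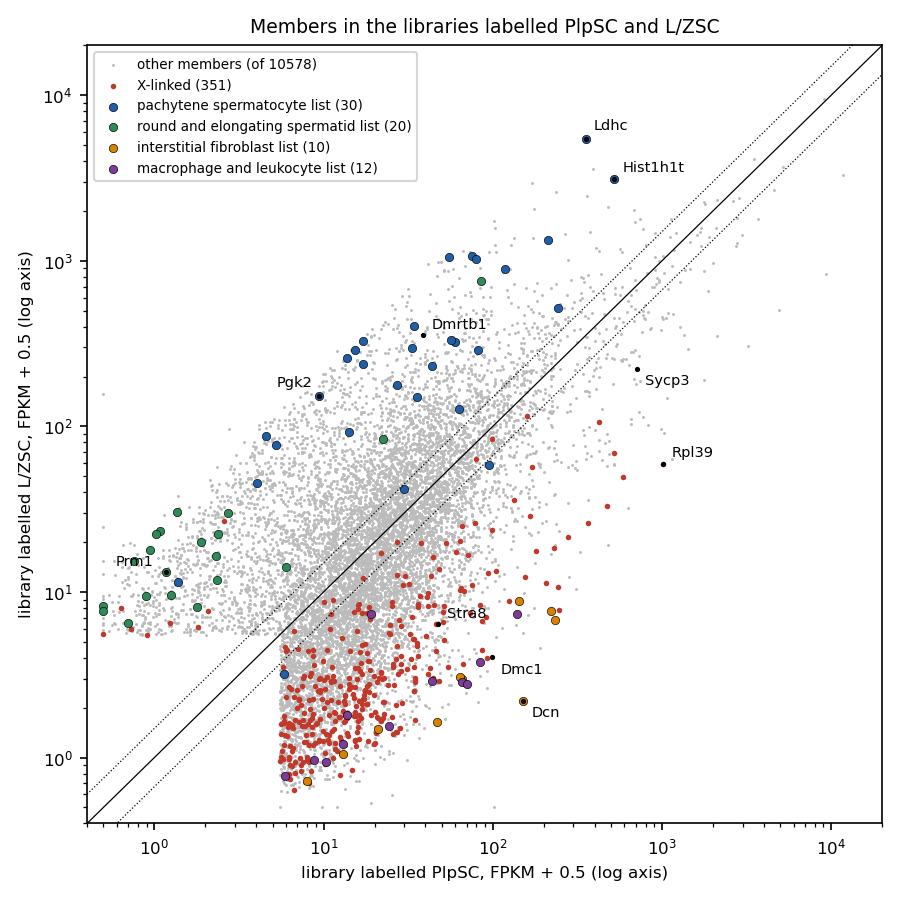
FPKM + 0.5 of each of 10578 members in the library labelled PlpSC (x axis, log scale) and in that labelled L/ZSC (y axis, log scale), with equal values on the solid line and a fold of 1.5 on the dotted lines. Of 30 members of the pachytene list, 27 lie above the band, while 329 of 351 X-linked members and all members of the fibroblast (10) and macrophage (12) lists lie below it.

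The 12 largest increases were Tcte3, 1700024G13Rik, 1700010K23Rik, Fam24a, Cypt12, 1700046C09Rik, Gm6460, Ropn1, Spata45, 1700029I15Rik, Tex33 and Kcnj9. Tcte3, a dynein light chain of the sperm tail, was listed at 0 in PlpSC and at 156 FPKM in L/ZSC, with 91.9 in SG and 51.7 in PaSC. A listed 0 may stand for an estimate that failed, and no fold is given for Tcte3. Ropn1, a component of the fibrous sheath of the sperm tail, was at 0.0794 FPKM in PlpSC, 14.9 in L/ZSC and 283 in PaSC. Kcnj9, a potassium channel gene known from brain, was at 3.65 FPKM in PlpSC, 102 in L/ZSC and 91.0 in PaSC, a 27.9-fold difference of the first pair. Across all members, 19 were listed at 0 in PlpSC and 4 in L/ZSC.

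The 12 largest decreases were Hist1h4n, Dcn, Plac8, Igfbp6, S100a6, Eif3j2, Vcam1, Col3a1, Thbd, Gm364, C1s1 and Akr1cl. Hist1h4n was at 101 FPKM in PlpSC and listed at 0 in L/ZSC. Near-identical histone genes can share reads, as can Eif3j2 and its paralogue, so their single values are uncertain. Dcn, which encodes the matrix proteoglycan decorin, was at 2.94 FPKM in SG, 150 in PlpSC, 1.71 in L/ZSC and 1.66 in PaSC, an 88.1-fold difference between PlpSC and L/ZSC. Gm364, the X-linked gene among them, was at 247 FPKM in PlpSC and 7.26 in L/ZSC. The members closest to the limit were Creb3l2, Kif5a and Sos1, whose PlpSC values of 5.00, 5.01 and 5.01 FPKM brought them in, while Gm5577, Wfdc6a and Tfap4 stayed out with maxima of 5.00, 5.00 and 5.00 in either library.

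The 12 largest increases all started below 5 FPKM in PlpSC. Of 9534 members at 5 FPKM or more in PlpSC, 84 were above a log2 difference of 4, 4 were above 4.5, and the highest was Rsph6a at 4.57, a radial spoke gene at 6.92 FPKM in PlpSC and 176 in L/ZSC. Among these, genes of very different level had large differences of similar size. Ldhc was at 354 and 5468 FPKM (3.95), Spink2 at 54.3 and 1051 FPKM (4.26), Tdrd6 at 16.7 and 328 FPKM (4.26) and Qrich2 at 11.6 and 284 FPKM (4.56).

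**Figure D2:**
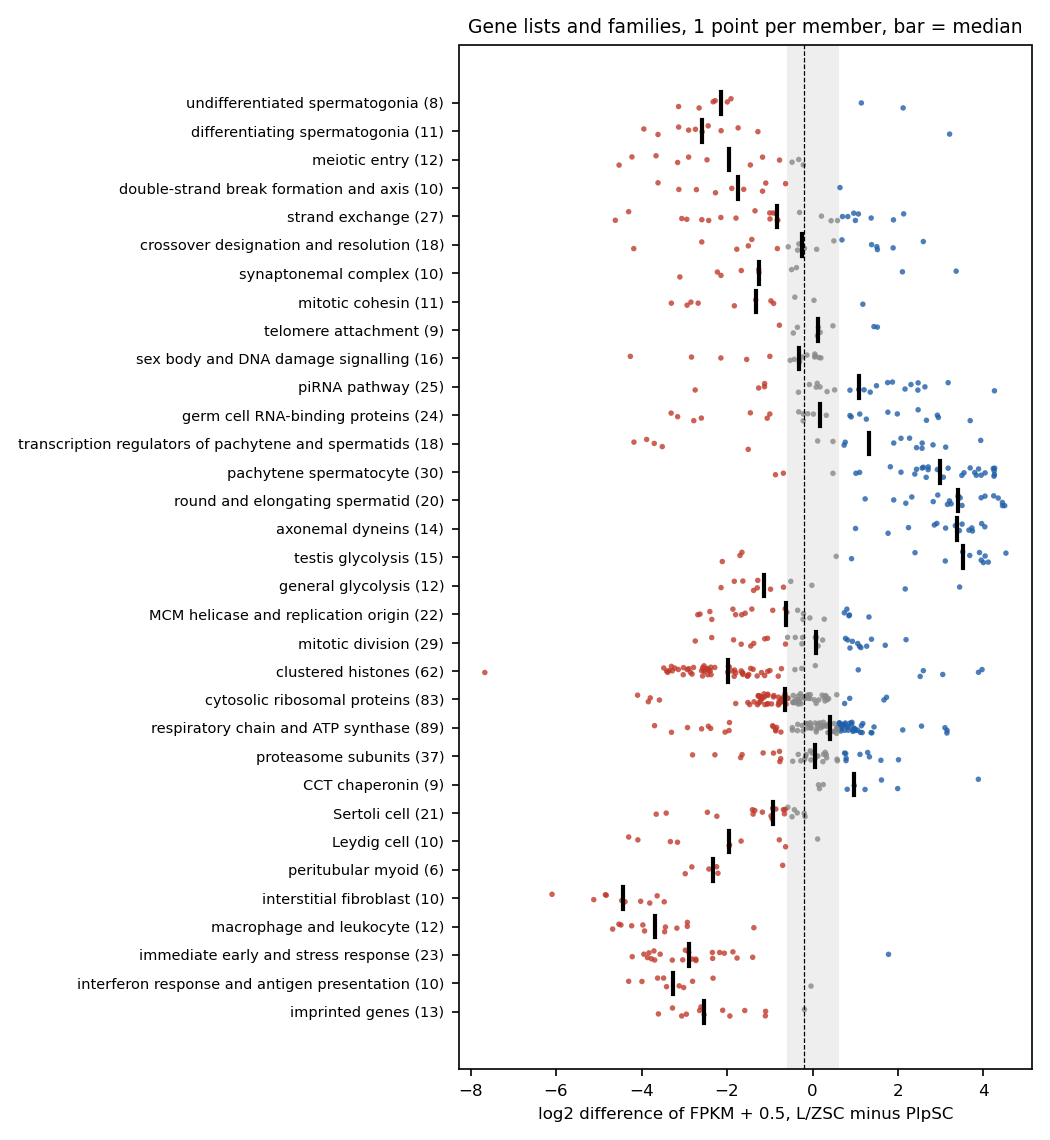
Log2 difference between L/ZSC and PlpSC (x axis) for the members of 33 gene lists and families (rows, number of members in brackets), with 1 point per member, blue above and red below the grey band of a 1.5-fold difference, a black bar at each median and a dashed line at the median of all members (−0.20). Medians run from −4.42 for interstitial fibroblast genes to 3.51 for testis glycolysis.

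Genes of spermatogonia and of entry into meiosis were mostly lower in L/ZSC. In the list for differentiating spermatogonia, 10 of 11 members were lower and 1 was higher, with a median of −2.58. Sohlh2, a transcription factor that drives differentiation, was at 31.4 FPKM in PlpSC and 3.14 in L/ZSC, and Dmrt1, which restrains meiotic entry, was at 62.5 and 11.1. The meiotic entry list had 9 of 12 members lower and none higher, with a median of −1.96. Dazl, the RNA-binding protein that licenses germ cells for meiosis, was the most abundant of them, at 129 FPKM in SG, 520 in PlpSC, 57.9 in L/ZSC and 33.6 in PaSC. Prss50, a testis serine protease gene, differed most in this list, from 283 to 11.8 FPKM. Of 8 undifferentiated spermatogonia genes that passed the filter out of 20 listed, 6 were lower, among them Taf4b (44.4 and 4.62 FPKM) and Zbtb16 (10.0 and 1.60 FPKM). The others were higher: Id4 was at 19.7 and 87.2 FPKM and Egr4 at 8.49 and 19.4 FPKM, and as the members at 5 FPKM in both libraries they gave the list a median of 1.63 there against −2.14 over all 8.

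Break formation and axis genes were lower in 9 of 10 members (median −1.75), and the exception was Spo11. Zcwpw1, a reader of the marks that PRDM9 lays down, was at 98.7 FPKM in PlpSC and 14.6 in L/ZSC, and Rec114, a partner of SPO11, was at 15.3 and 3.78. Strand exchange genes had 15 of 27 members lower and 8 higher, with a median of −0.83 that became 0.30 under equal sums over all rows and 0.21 over members at 5 FPKM in both libraries. The lower members included Meiob (68.3 and 7.76 FPKM), a single-strand binding protein of meiosis. In contrast, Psmc3ip, which encodes the DMC1 cofactor HOP2, was at 54.5 and 204 FPKM, while its partner Mnd1 was at 25.1 and 3.75 FPKM. The RPA subunits also parted, with Rpa1 at 39.1 and 173 FPKM, Rpa2 at 75.0 and 29.2, and Rpa3 at 42.5 and 11.9.

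Crossover genes were balanced, with 6 of 18 members higher and 6 lower. Those lower included Tex11, an X-linked gene needed for crossovers (66.3 and 3.18 FPKM), and Msh5 (34.6 and 9.79 FPKM), which acts at an early step. Those higher included Mlh3 (10.1 and 29.9 FPKM) and Cntd1 (40.6 and 107 FPKM), which act where crossovers are finally designated, and the nuclease scaffold Slx4 (7.58 and 48.2 FPKM). Msh4, the partner of Msh5, was at 15.2 and 8.38 FPKM.

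Synaptonemal complex genes were lower in 6 of 10 members (median −1.26, and −0.06 under equal sums over all rows). Sycp3 was at 223 FPKM in SG, 709 in PlpSC, 223 in L/ZSC and 130 in PaSC, and the central element gene Syce2 was at 163 in PlpSC and 36.5 in L/ZSC. Syce1, another central element gene, ran the other way at 86.7 and 374 FPKM, as did its relative Syce1l at 5.26 and 58.6 FPKM. Telomere attachment genes, which tether chromosome ends to the nuclear envelope, moved little: 6 of 9 lay within 1.5-fold, and Terb1 was at 19.8 and 21.8 FPKM. The meiotic kleisin Rad21l was at 29.2 and 0.875 FPKM, whereas the other meiotic kleisin, Rec8, was at 7.90 and 5.53 FPKM. The DNA damage signalling genes of the sex body had 11 of 16 members within 1.5-fold, including Atr (204 and 226 FPKM), the kinase that starts silencing of unsynapsed chromatin, and Mdc1 (35.0 and 40.2 FPKM), which spreads it. Atm, the kinase that answers breaks in leptotene, was at 23.4 and 2.86 FPKM.

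The pachytene programme was higher in L/ZSC almost throughout. Of 30 members of the pachytene list, 27 were higher and 2 were lower, with a median of 2.99. The genes taken as pachytene include the claudin gene Cldn11, at 189 FPKM in SG, 93.9 in PlpSC, 58.3 in L/ZSC and 5.15 in PaSC. Ldhc, the lactate dehydrogenase of germ cells, was at 3409 FPKM in SG, 354 in PlpSC, 5468 in L/ZSC and 5721 in PaSC. Hist1h1t, the linker histone of spermatocytes, was at 520 FPKM in PlpSC and 3143 in L/ZSC, and Hspa2, a chaperone that dismantles the synaptonemal complex, at 212 and 1345. Ccna1, the A-type cyclin needed to leave meiotic prophase, was at 4.08 and 86.5 FPKM. Mybl1, which encodes A-MYB itself, was at 29.4 and 41.1 FPKM, within 1.5-fold, while Tcfl5 was at 56.0 and 334 FPKM. Among regulators of transcription in pachytene cells and spermatids, 11 of 18 were higher, including Rfx2 (13.1 and 95.7 FPKM), a driver of ciliary and flagellar genes, and Crem (22.0 and 83.6 FPKM), the activator of spermatid genes.

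Among the 12 largest increases and the pachytene genes, 39 promoter windows of 32 genes were searched and 6 held a MYB or RFX motif. Of these 6, 4 are shown. Each is the RefSeq window from 250 bases before to 50 bases after the transcript start (GRCm38.p6), read 5′ to 3′ on the gene's strand, with the motif in capitals. Piwil1 and Tcfl5 hold GGCAGTT, searched as the core recognised by MYB factors. Tex33 and Ybx2 hold TGGCAAC, the reverse complement of GTTGCCA, searched as the core recognised by RFX factors. Piwil1 lies at chr5:128735996-128736295 on the plus strand, Tcfl5 at chr2:180642642-180642941 on the minus strand, Ybx2 at chr11:69936078-69936377 on the plus strand, and Tex33 at chr15:78395863-78396162 on the minus strand. Ybx2 and Tex33 each have a second window with no match.
Piwil1: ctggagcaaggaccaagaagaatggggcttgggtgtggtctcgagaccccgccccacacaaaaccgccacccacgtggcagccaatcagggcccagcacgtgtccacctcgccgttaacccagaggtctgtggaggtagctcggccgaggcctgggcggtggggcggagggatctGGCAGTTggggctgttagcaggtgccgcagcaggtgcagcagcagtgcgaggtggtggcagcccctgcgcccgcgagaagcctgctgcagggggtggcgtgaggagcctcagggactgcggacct
Tcfl5: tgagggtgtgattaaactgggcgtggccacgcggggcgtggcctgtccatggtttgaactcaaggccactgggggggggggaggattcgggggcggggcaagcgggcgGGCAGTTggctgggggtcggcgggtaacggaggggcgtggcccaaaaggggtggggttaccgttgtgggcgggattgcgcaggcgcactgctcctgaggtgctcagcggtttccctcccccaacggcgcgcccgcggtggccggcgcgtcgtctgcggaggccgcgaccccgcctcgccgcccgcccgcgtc
Ybx2: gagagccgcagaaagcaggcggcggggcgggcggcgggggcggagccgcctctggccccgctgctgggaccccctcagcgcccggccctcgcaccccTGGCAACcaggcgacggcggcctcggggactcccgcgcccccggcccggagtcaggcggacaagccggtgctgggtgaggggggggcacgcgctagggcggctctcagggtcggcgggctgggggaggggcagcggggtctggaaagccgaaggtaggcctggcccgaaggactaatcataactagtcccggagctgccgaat
Tex33: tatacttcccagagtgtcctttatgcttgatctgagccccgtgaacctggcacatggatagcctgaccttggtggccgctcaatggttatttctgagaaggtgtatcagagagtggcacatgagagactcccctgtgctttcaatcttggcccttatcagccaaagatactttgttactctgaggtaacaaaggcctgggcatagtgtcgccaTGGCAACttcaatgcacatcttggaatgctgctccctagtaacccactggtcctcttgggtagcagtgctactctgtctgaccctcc

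The motif began 75 bases before the start in Piwil1, 142 before it in Tcfl5, 153 in Ybx2 and 37 in Tex33. Piwil1, a PIWI protein of pachytene piRNAs, was at 32.7 FPKM in PlpSC and 299 in L/ZSC, Ybx2, which stores translationally silent transcripts, at 117 and 890, and Tex33 at 0.254 and 18.7. Both strands of all 32851 promoter windows of the table were searched. GTTGCCA was found in 9.58% of 1483 windows of members more than 4-fold higher in L/ZSC, in 2.43% of 1564 windows of members more than 4-fold lower, in 3.92% of windows of the other members and in 4.38% of all windows. GGCAGTT was found in 7.55%, 3.96%, 3.38% and 4.12% of the same sets. The cAMP response element TGACGTCA ran differently, at 2.16%, 2.37%, 3.93% and 1.79%. The CCAAT box was at 40.5%, 39.4%, 38.4% and 37.4%. Windows of members more than 4-fold higher had a median GC content of 56.7% and a median of 13 CpG, against 60.3% and 18 for those more than 4-fold lower and 61.7% and 23 for the other members. A match describes letters in a window, not a bound site.

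Spermatid transcripts were present at low levels in L/ZSC. Of 32 spermatid genes measured, 20 were members, all of them higher in L/ZSC (median 3.41), but 3 of them reached 5 FPKM in both libraries, so that most entered through L/ZSC. Prm1, which encodes a protamine that packs sperm DNA, was at 0.797 FPKM in SG, 0.665 in PlpSC, 12.7 in L/ZSC and 2937 in PaSC. Tnp1, the transition protein that precedes protamines, was at 1.44, 2.23, 29.5 and 4407 FPKM. Both were thus far below their PaSC values in L/ZSC.

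Genes of the axoneme, the microtubule core of the sperm tail, were higher as a body. All 14 axonemal dynein members were higher in L/ZSC (median 3.39), from Dnal1 at 4.56 and 9.68 FPKM to Dnali1 at 5.80 and 103 FPKM. Dnah8, a heavy chain of the sperm outer arm, was the most abundant at 32.1 and 369 FPKM. Without any list, members were also grouped by the letters before the first digit of their symbols, which gave 131 groups of at least 10 members. The group Cfap (cilia and flagella associated proteins) had 20 of 20 members higher with a median of 3.47, and Cfap206 was at 20.7 and 343 FPKM. At 5 FPKM in both libraries were 10 Cfap members and 8 axonemal dyneins, all higher, with medians of 3.18 and 3.39. The group Ift (intraflagellar transport) had 13 of 14 higher with a median of 1.80, led by Ift140 at 27.4 and 284 FPKM, while Ift52 was at 22.8 and 26.6 FPKM. The medians of Efcab and Prss were 2.72 and 3.21, but 0.69 and 1.03 over the 5 and 6 members at 5 FPKM in both libraries. Prss was divided, with Prss21 at 3.43 and 74.4 FPKM against Prss35 at 113 and 5.54 FPKM.

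Of 12 ADAM metalloprotease members 7 were higher and 5 lower. Adam2, Adam3, Adam5, Adam18, Adam30, Adam32 and Adam1b, members of the sperm surface branch, had log2 differences from 3.54 to 4.25, with Adam3 at 14.8 and 291 FPKM. The other 5 members were lower, with Adam10, the sheddase of Notch, at 17.7 and 3.07 FPKM and Adam23 at 10.3 and 0.495. Tubulins had 5 of 17 members higher and 11 lower, with a median of −0.80 that became 0.39 under equal sums over all rows. The testis alpha tubulins Tuba3a (359 and 2448 FPKM) and Tuba3b (393 and 3603 FPKM), which are near-identical and can share reads, were higher, whereas Tubb2a (8.92 and 0.795 FPKM) and Tubb5 (107 and 42.0 FPKM) were lower.

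Related genes were compared in 29 pairs, with 1 gene of each assigned as the somatic form and 1 as the germline form. These names were given to the pairs, and expression outside the testis was not examined. The germline form made up a larger share of the pair's summed FPKM in L/ZSC than in PlpSC in 27 pairs, and its median share was 41.2% in PlpSC and 82.9% in L/ZSC. In 16 pairs the forms moved past 1.5-fold in opposite directions. Pgk1, the X-linked phosphoglycerate kinase, was at 40.4 and 8.77 FPKM while its retrogene Pgk2 was at 8.84 and 153, so that the germline share in L/ZSC was 94.6%. Cytochrome c went from 46.9% to 95.8%, with Cycs at 66.9 and 14.2 FPKM and Cyct at 59.1 and 322. Linker histones went from 33.7% to 97.2%, with Hist1h1c at 1022 and 91.2 FPKM. HSP70 went from 23.8% to 87.4%, with the constitutive Hspa8 at 680 and 194 FPKM. Cyclin A went from 12.0% to 94.1%, with the mitotic Ccna2 at 29.8 and 5.42 FPKM. Lactate dehydrogenase was different in that both forms were higher, Ldha at 103 and 1129 FPKM.

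**Figure D3:**
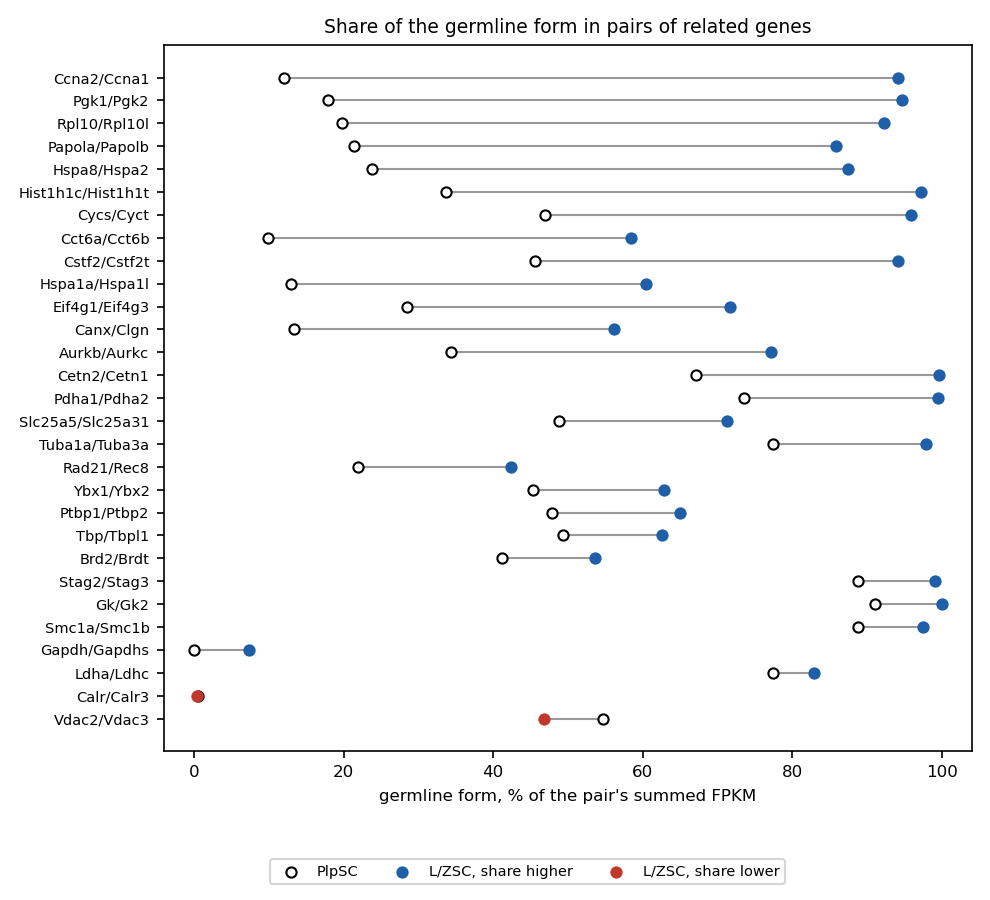
Share of the gene assigned as germline form in the summed FPKM of 29 pairs of related genes (x axis, %), in PlpSC (open circles) and L/ZSC (filled circles). Pairs are named with the gene assigned as somatic first. The share is higher in L/ZSC in 27 pairs and lower in 2, of which Vdac2/Vdac3 goes from 54.7% to 46.8%.

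The pairs whose germline share was lower in L/ZSC were Vdac2/Vdac3 and Calr/Calr3. In the cohesin pairs the somatic form was lower in L/ZSC, with Smc1a at 12.9 and 1.59 FPKM and Stag2 at 20.2 and 2.38, while the meiotic forms varied: Stag3 was at 160 and 265, Smc1b at 102 and 59.4, which turns higher under equal sums over all rows, and Rec8 at 7.90 and 5.53. Energy metabolism showed a like contrast in list medians, but not in summed FPKM. Testis glycolysis had 11 of 15 members higher (median 3.51), including Slc2a3, a glucose transporter, at 101 and 1749 FPKM, and Pgam2 at 41.0 and 954. General glycolysis had 8 of 12 lower and 2 higher, with a median of −1.13 that became 0.03 under equal sums over all rows. Gapdh was at 185 and 59.5 FPKM. The summed FPKM of general glycolysis was higher in L/ZSC, at 860 and 1611, and its most raised member was Ldha, at 103 and 1129. Gapdhs, the sperm form, was still at 0.0821 and 4.74 FPKM and was no member.

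Sex-linked genes stood apart from every autosome. Of 351 X-linked members 329 were lower (93.7%), 9 were higher and 13 lay within 1.5-fold, with a median of −2.62 (−1.53 under equal sums over all rows). More than 4-fold lower were 249. Autosomal members, 10189 in all, had a median of −0.14 with 39.4% lower, and the medians of the 19 autosomes ran from −0.46 for chromosome 13 to 0.12 for chromosome 7. Over the 82 X-linked members at 5 FPKM or more in both libraries, 72 were lower and the median was −2.06. X-linked genes took 0.873% of the FPKM summed over members in SG, 1.93% in PlpSC, 0.314% in L/ZSC and 0.387% in PaSC. These sums include the 2 RNase P RNA members, which were highest in PlpSC (129425 FPKM). Hprt, a purine salvage enzyme used in every cell, stood at 21.6, 85.4, 6.15 and 2.90 FPKM. All 7 Y-linked members were lower, with a median of −3.70, and Eif2s3y, a translation initiation factor, was at 88.3 and 5.96 FPKM. Of these 7, 2 reached 5 FPKM in both libraries (median −3.56). Somatic marker lists held 3 of the X-linked members, and the part of somatic cells in the X-linked differences was not tested.

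**Figure D4:**
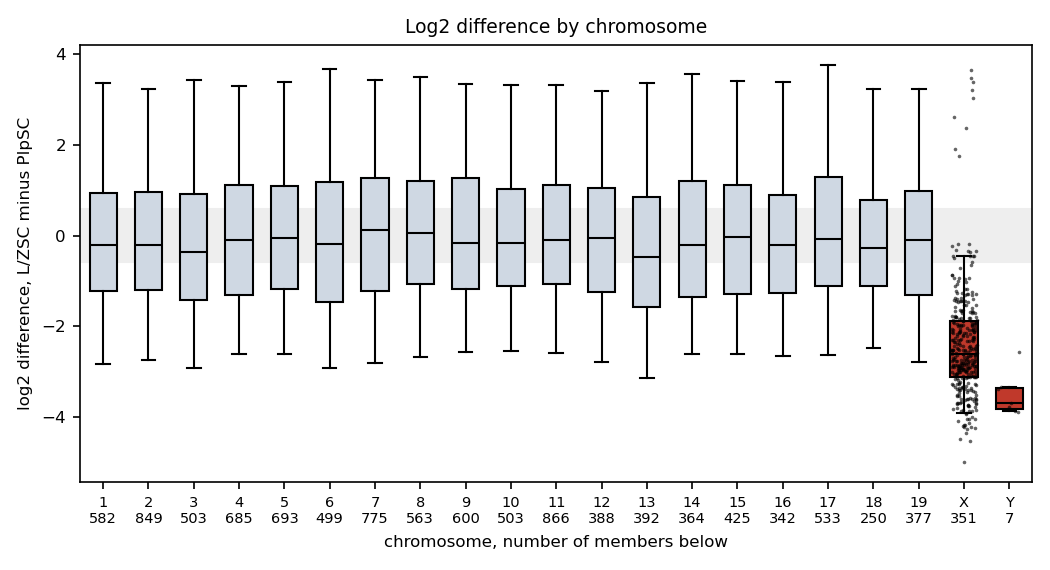
Log2 difference between L/ZSC and PlpSC (y axis) of members by chromosome (x axis, number of members beneath), with boxes from the 25th to the 75th percentile, whiskers from the 5th to the 95th and every X and Y member as a point. The 19 autosomal medians lie between −0.46 and 0.12, and those of X and Y at −2.62 and −3.70.

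The 9 higher X-linked members were Tmsb15a, 1700010D01Rik, Spin2d, Cypt3, H2afb3, Akap4, Tsga8, Cypt1 and Gm5941, each under 3 FPKM in PlpSC, and all 9 had their highest value in PaSC. Akap4, the main scaffold of the fibrous sheath, was at 0.200 FPKM in PlpSC, 5.95 in L/ZSC and 195 in PaSC, and Tsga8, a spermatid gene, at 2.09, 26.5 and 240. The 13 within 1.5-fold included 2 genes of the Sertoli list, Rhox5 at 34.4 FPKM in SG, 10.9 in PlpSC, 8.42 in L/ZSC and 1.17 in PaSC, and Gata1 at 27.7, 9.50, 8.24 and 1.49. Of 21 Sertoli members 15 were lower in L/ZSC and none was higher (median −0.93, and 0.23 under equal sums over all rows). The Mage, Xlr and Rhox families were mostly lower, with 21 of 22 Mage and Xlr members and 3 of 4 Rhox members. The higher Mage and Xlr member (1.09) was not annotated to the X chromosome. Most of these members entered through PlpSC: 3 Mage and Xlr members, all lower (median −1.57), reached 5 FPKM in both libraries. Among Rhox members only Rhox5 did, and it lay within 1.5-fold. Fmr1nb, an X-linked testis gene, was at 242 and 10.3 FPKM, and Taf7l, an X-linked relative of a TFIID subunit, at 205 and 10.8.

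Within several families the X-linked members were the lowest. Cytosolic ribosomal protein genes had 45 of 83 members lower and 4 higher, with a median of −0.64 that became 0.56 under equal sums over all rows. Their 4 lowest members were the 4 X-linked ones, Rpl39 (1015 and 59.0 FPKM), Rpl10 (471 and 32.4), Rps4x (364 and 25.8) and Rpl36a (591 and 48.9), with a median of −3.82 against −0.62 for 79 autosomal members. The highest were the autosomal germline copies Rpl10l (116 and 386 FPKM) and Rpl39l (194 and 619 FPKM). Respiratory chain and ATP synthase genes had 36 of 89 members higher and 15 lower (median 0.41). There too the 3 X-linked members were lowest, with Cox7b at 41.2 and 2.72 FPKM, Ndufb11 at 72.9 and 6.95 and Ndufa1 at 521 and 68.2. The median of the 86 autosomal members was 0.44. The testis forms Cox8c (85.0 and 758 FPKM) and Cox6b2 (87.0 and 512 FPKM) were at the other end.

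**Figure D5:**
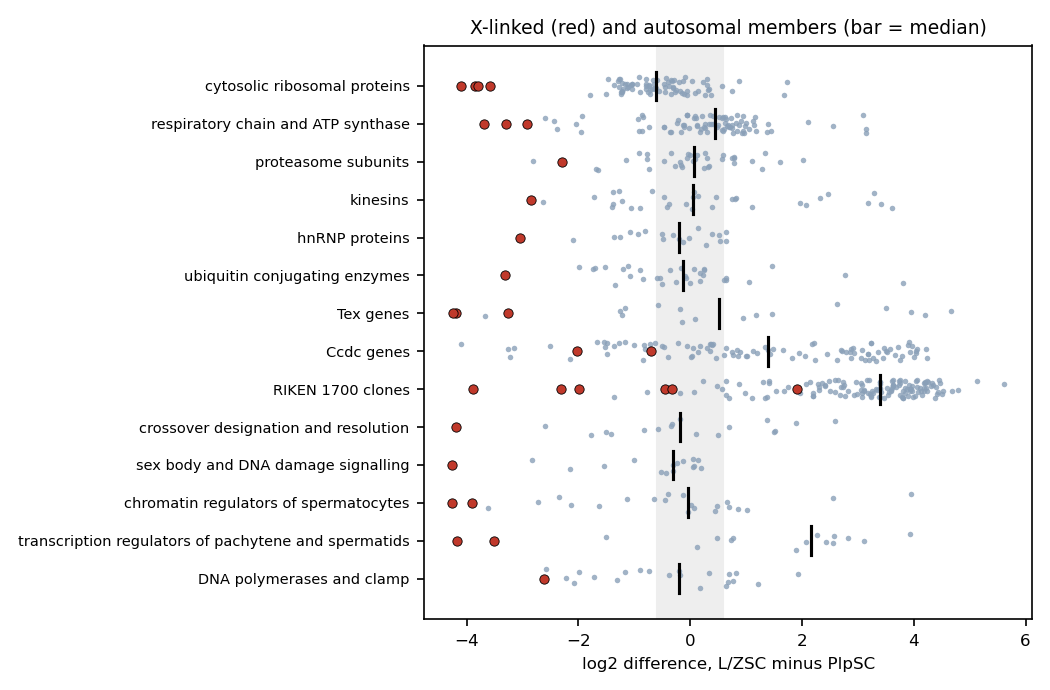
Log2 difference between L/ZSC and PlpSC (x axis) of X-linked (red) and autosomal (grey blue, bar at the median) members within 14 gene families and lists (rows), with the grey band marking 1.5-fold. The 4 X-linked ribosomal protein genes and the 3 X-linked respiratory chain genes lie to the left of all autosomal members of their families.

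Across the symbol groups, 56 held at least 1 X-linked and 3 autosomal members. The X-linked median was below the autosomal one in 51 of them, and the lowest member of all was X-linked in 30. Most X-linked members entered through PlpSC alone, where the filter favours lower values. Only 82 of 351 reached 5 FPKM in both libraries, and the group counts were not repeated over those 82. Examples of a lowest X-linked member were Ube2a among ubiquitin conjugating enzymes (12.2 and 0.779 FPKM), Kif4 among kinesins (12.0 and 1.24) and Hnrnph2 among hnRNP proteins (32.2 and 3.45). In the proteasome the X-linked Psmd10 (18.1 and 3.32) was below the autosomal median, but the autosomal Psmb8 (5.02 and 0.289) was lowest. The proteasome as a whole had 9 of 37 members higher and 9 lower, with a median of 0.06. The group Akap was an exception through Akap4. For 13 X-linked genes with copies elsewhere in the genome, all 13 were lower (median −2.86), and of 10 autosomal retrogenes of that kind 8 were higher and 2 within 1.5-fold (median 2.06). The filter admitted them differently: 4 of the 13 X-linked genes reached 5 FPKM in both libraries (all lower, median −3.10), against all 10 autosomal retrogenes. Cstf2, an RNA cleavage factor, was at 35.9 and 3.59 FPKM and its copy Cstf2t at 30.1 and 56.8. Cetn2, a centrin, was at 25.1 and 3.03 FPKM and Cetn1 at 51.3 and 870.

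Of 22 members for the MCM helicase and origins 12 were lower and 5 higher, with a median of −0.62 that became 0.51 under equal sums over all rows. The helicase subunits Mcm5 (80.5 and 12.6 FPKM), Mcm4 (20.3 and 2.73) and Mcm2 (32.3 and 5.71) were lower, as were Mcm3 (39.7 and 11.0) and Mcm6 (55.9 and 18.4), whereas Mcm7, which completes the same ring, was at 65.0 and 119 FPKM. Gins4, a subunit of the GINS complex that joins the helicase, was at 28.7 and 72.3 FPKM. Pcna, the sliding clamp, was at 197 and 250 FPKM, within 1.5-fold, while Rrm2, a subunit of ribonucleotide reductase used in S phase, was at 26.0 and 6.18 FPKM. Mitotic division genes were balanced, with 11 of 29 higher and 9 lower: Aurka was at 39.2 and 181 FPKM, and Mki67, a marker of cycling cells, at 22.8 and 5.99. E2f1, which drives entry into S phase, was at 12.2 and 1.17 FPKM, and the inhibitor of cyclin-dependent kinases Cdkn2c at 32.0 and 213.

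Clustered histone genes, whose transcripts are made in S phase, were lower in 53 of 62 members with a median of −1.97. Their summed FPKM was 24888 in SG, 55559 in PlpSC, 25391 in L/ZSC and 12947 in PaSC. Hist1h4k was at 4955 FPKM in PlpSC and 502 in L/ZSC, and Hist1h1a, a linker histone of germ cells, at 3222 and 307. Hist1h2ba, the testis H2B variant, stayed level at 9042 and 9465 FPKM. The highest members were Hist2h2aa2 (1.43 and 29.7 FPKM), Hist1h2al (0.275 and 10.9) and Hist2h2be (3.41 and 31.8).

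Small RNA pathway genes were mostly higher. Of 25 piRNA pathway members 14 were higher and 4 lower (median 1.08), and 7 of 8 Tudor domain genes, scaffolds of germ granules, were higher. Mael was at 277 and 1013 FPKM, Tdrd1 at 35.9 and 201, and Henmt1, which methylates piRNA ends, at 6.04 and 40.0. Piwil2, the PIWI protein of earlier germ cells, was at 107 and 121 FPKM, and Btbd18, a licensing factor for pachytene piRNA transcription, was lower at 16.6 and 2.05. Germ cell RNA-binding proteins had 11 of 24 members higher and 7 lower, with Ybx3 at 79.0 and 1025 FPKM and Elavl2 at 12.9 and 0.850. The poly(A)-binding genes Pabpc2 (13.3 and 258 FPKM) and Pabpc6 (18.6 and 344) and the testis poly(A) polymerase Papolb (13.2 and 155) were among the highest of the translation list, whose 21 members had 6 higher and 9 lower. Of 17 members for m6A, the methyl mark on mRNA, 9 were lower and 1 was higher, with a median of −0.65 that became 0.53 under equal sums over all rows. Igf2bp1, an m6A reader, was at 9.73 and 1.14 FPKM.

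Chaperones were divided as well. All 9 CCT chaperonin members, which fold tubulin and actin, were level or higher (6 higher, median 0.98), with Tcp1 at 373 and 1487 FPKM and the testis subunit Cct6b at 14.9 and 227. Of 12 HSP70 members 5 were higher and 6 lower, and Hspa5, the chaperone of the endoplasmic reticulum, was at 1342 and 357 FPKM. Cholesterol synthesis had 15 of 22 members lower and 1 higher (Fdft1, 18.2 and 72.8 FPKM), with a median of −1.02 that became 0.12 under equal sums over all rows. Apoptosis regulators of the BCL2 family had 7 of 10 lower and 3 higher, with Bax at 39.1 and 9.48 FPKM and Bad at 32.7 and 136. Their median of −1.17 became 0.20 over the 6 members at 5 FPKM in both libraries, of which 3 were higher and 3 lower.

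Genes of somatic testis cells were lower in L/ZSC, but most fibroblast and macrophage members passed the filter through PlpSC alone. All 10 interstitial fibroblast members were lower (median −4.42), and their summed FPKM was 965 in PlpSC and 31.5 in L/ZSC. At 5 FPKM in both libraries were 3 of these 10, with a median of −4.85. All 12 macrophage and leukocyte members were lower (median −3.69, summed 499 and 28.5 FPKM), with the complement gene C1qa at 83.9 and 3.28 FPKM, and the 2 members at 5 FPKM in both libraries had a median of −2.80. Of 10 Leydig cell members 9 were lower, and Insl3, a hormone of these cells, was at 17.7 FPKM in SG, 632 in PlpSC, 31.6 in L/ZSC and 1834 in PaSC. All 6 peritubular myoid members were lower (median −2.33), with Acta2 at 71.7 and 9.70 FPKM. Sertoli transcripts differed less, with Clu at 506 and 258 FPKM.

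Several families were lower together with these somatic markers, and the part of somatic cells in them was not tested. Collagens were lower in 17 of 20 members (median −3.18), cathepsins, the lysosomal proteases, in all 11 (median −3.07), S100 proteins in all 7 (median −2.93) and insulin-like growth factor binding proteins in all 5 (median −3.71). Apoe, a lipid carrier abundant in macrophages and steroid-forming cells, was at 478 and 18.7 FPKM. Immediate early and stress genes were lower in 22 of 23 members (median −2.89): Fos stood at 79.9 FPKM in SG, 325 in PlpSC, 17.0 in L/ZSC and 11.3 in PaSC, and Junb at 103, 177, 14.6 and 12.7. The exception was the co-chaperone gene Dnajb1, at 56.5 and 195 FPKM. Interferon response and antigen presentation genes were lower in 9 of 10 members (median −3.27), with H2-K1 at 309 and 61.2 FPKM, and imprinted genes in 12 of 13 (median −2.54), with Igf2r at 28.5 and 4.25. Few members of these groups reached 5 FPKM in both libraries: 5 collagens, 4 cathepsins, 1 S100 gene, 2 binding proteins, 8 immediate early genes, 4 interferon genes and 2 imprinted genes. Of those 2 imprinted genes 1 was lower, with a median of −1.14.

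Noncoding transcripts were more often higher than protein-coding ones. Of 321 members annotated as lncRNA in RefSeq 234 were higher and 46 lower, with a median of 2.24, against 3249 higher and 4286 lower of 10159 protein-coding members (median −0.24). Over the 122 lncRNA members at 5 FPKM or more in both libraries, 75 were higher and 17 lower, with a median of 1.07, against 2433 higher and 2180 lower of 7148 protein-coding members (median 0.03). Rbakdn, the testis lncRNA on which the study centres, was at 1803 FPKM in SG, 171 in PlpSC, 2938 in L/ZSC and 2818 in PaSC, and 1700028J19Rik at 363, 28.4, 610 and 706. Gm15441 ran the other way, at 13.9, 116, 9.88 and 10.2 FPKM. Given the doubt over the SG label, the SG values of these transcripts are not read as levels in spermatogonia. From its sequencing the study ranks Rbakdn first among the lncRNAs that increased over meiosis. By PCR it reports a first appearance of Rbakdn in PlpSC and a gradual rise through meiosis. RIKEN clones whose names open with the same digits as 1700028J19Rik, a series from testis cDNA, were higher in 133 of 145 members (median 3.39), and 33 transcripts named as opposite strand had 20 higher and 6 lower (median 1.16). At 5 FPKM in both libraries were 55 of these clones, 48 higher and 1 lower (median 2.96). The same limit left 16 opposite-strand transcripts, 7 higher and 3 lower (median 0.41). Ptbp2, a splicing regulator studied together with Rbakdn, was at 63.7 and 120 FPKM, and its relative Ptbp1 at 69.6 and 64.5. Longer genes had lower differences: the median over members was 0.05 in the fifth of members with the shortest genomic span (235 to 7135 bases) and −0.49 in the fifth with the longest.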

How the data were processed

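Single rRNA-depleted, directional total RNA libraries of SG, PlpSC, L/ZSC and PaSC were deposited as 1 table. Per the labels and the study's methods, the authors aligned reads with TopHat to mm10 and computed FPKM per RefSeq gene with Cuffdiff (versions not given in the sources used here). Counts and depth are unknown, so counting error cannot be given, and exact zeros may be failed estimates.

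The label of a column was also compared with lncRNA values that the study lists. The PlpSC column lay within 1% for 642 of 642 transcripts, the L/ZSC column for 4 of 741, and the SG column was a constant multiple of the values listed for PaSC (519 of 519 within 1% of the median ratio).

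A difference is log2((L/ZSC + 0.5)/(PlpSC + 0.5)), which understates the change of low genes. Members reached 5 FPKM in either library, after 1292 short RNA rows were left out. No test was run, because each stage had 1 library. Lists and symbol families are described by counts and medians, and pairs by shares. The scripts were tested on simulated data. Symbols of 10118 members matched RefSeq (GRCm38.p6), 430 matched by an older symbol and 30 did not. Chromosomes, biotypes and promoters come from there.

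Members and lists were chosen with earlier results of these data known. Named genes were the 12 largest and 12 smallest differences, the 3 most abundant and the most changed member of each list or family, markers, pairs, genes the study names and those nearest the 5 FPKM limit. Beyond this rule, 64 of 212 named genes were chosen after their values were seen. Some items are not reported here. Alternatives were pseudocounts of 0.1 and 1, other filters, a fold of 2 and 3 scalings. Analyses used Python 3.11.15, pandas 2.3.3, numpy 2.4.6, scipy 1.17.1 and matplotlib 3.10.9.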

Additional observations from a re-analysis of the deposited data

How the results depend on the processing

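No paired analysis was possible because there is 1 library per stage. With equal sums over all rows, 6182 members were higher and 1986 lower, and the median over members was 0.96. The count of lower members was 7302 with no filter beyond a value above 0 and 2211 with 5 FPKM in both libraries. The median over members was −0.37 with 1 FPKM in either library, 0.045 with 5 FPKM in both, −0.11 with a mean of 5 FPKM and −0.12 with median ratio scaling. The X chromosome median was −2.89 and −2.33 with pseudocounts of 0.1 and 1, −2.12 with 1 FPKM in either library, −1.34 with no filter, −2.06 with 5 FPKM in both, −2.77 with a mean of 5 FPKM and −1.53 with equal sums over all rows, and so stayed below 0 under each of these.

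Medians that changed sign with equal sums over all rows were strand exchange (0.30), Sertoli cell (0.23), MCM helicase and origins (0.51), cyclins (0.35), general glycolysis (0.032), cholesterol synthesis (0.12), histone variants (0.49), m6A (0.53), genes named by the study (0.38), cytosolic ribosomal proteins (0.56), tubulins (0.39) and snoRNA hosts (0.39). Those that changed sign over members at 5 FPKM in both libraries were undifferentiated spermatogonia (1.63), strand exchange (0.21), DNA methylation (0.24) and the BCL2 family (0.20). Of the genes named, Calr (0.066), Clu (0.23), Msh4 (0.32), Smc1b (0.42) and Sos1 (0.26) changed sign with equal sums over all rows. Over members this scaling adds between 0.16 and 1.20, with a median of 1.15. Near-identical genes can share reads, and the choice between scalings cannot be settled from 1 library per stage.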
